A study of Homo sapiens with 12 samples.

Results

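Transcription does not stop at the strand on which a gene is annotated, and part of the RNA of a cell is copied from the opposite strand of other genes. The clusters examined were those called on the strand opposite an annotated gene, in PAR-CLIP libraries of the RNA-binding proteins IGF2BP1, IGF2BP2 and IGF2BP3 and of METTL1 and WDR4. A cluster was taken where its midpoint lay in no gene of GENCODE release 44 on its own strand, lay inside a gene on the opposite strand, and was not within 5000 nt past the end of a protein-coding gene on its own strand. Of 96139 clusters on chromosomes 1 to 22, X and Y in 12 libraries, 4594 met this rule and are called antisense clusters below. The window past gene ends alone left out a further 1151 clusters.

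The cells of all 12 libraries were HepG2, a line derived from a human liver cancer, without any knockout or overexpression named in the labels. The cells were grown with 4-thiouridine (4SU), crosslinked with ultraviolet light of 365 nm, and their lysates were digested with RNase T1 before precipitation with an antibody to the named protein. Each group held 2 libraries. The groups were IGF2BP1, IGF2BP2, IGF2BP3, a further IGF2BP3 set labelled bio2, METTL1 and WDR4. Input or mock libraries were not analysed here, so the values compare libraries with each other and clusters with other clusters of the same library. The IGF2BP proteins were studied as candidate readers of internal m7G, and METTL1 with its partner WDR4 as the writer. The files gave neither reads nor scores, so the depth behind a cluster was unknown.

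PAR-CLIP marks contacts between a protein and RNA because crosslinked 4SU is read as C in place of T, and the strand of a cluster is that of the RNA. IGF2BP proteins bind mature and immature transcripts and prefer CA-rich sequence, in particular CAU followed by A, C or U (written CAUH). METTL1 is the methyltransferase that sets m7G in tRNA, and WDR4 is its non-catalytic partner. RNA opposite a gene can come from an antisense long noncoding RNA, from transcription that runs on beyond the end of a gene, or from a repeated element, and a cluster can also be placed at a near-identical copy of the RNA it came from. Nuclear copies of mitochondrial DNA and of ribosomal DNA are well-known copies of this kind.

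Overlapping antisense clusters of all libraries were merged on each strand into 2703 sites. The sequences below are the central stretches, of at most 30 nt, of sites that the results turn on. They are given 5′ to 3′ on the strand of the cluster, from hg38, with T for U and with each CAT followed by A, C or T in capitals. The first 5 are sites with a single-copy centre that were found in many libraries, and they are named by the gene on the opposite strand.
LINC01965 site, chr2:104062262-104062290, minus strand: cttcaaaactctctctctctttctgtctg
LINC01291 site, chr2:74929260-74929289, minus strand: ccctacccttatctcacctcaatcCATTct
LINC01291 further site, chr2:74931949-74931978, minus strand: ctctctctctcctttccctaCATCATCaat
ENSG00000246250 site, chr11:43864833-43864862, plus strand: ctccaccCATTCATCcctctcttttcctcc
HRG-AS1 site, chr3:186626999-186627028, plus strand: ctctcaaatcctaatcacacctccaCATCt

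The next 2 were found in IGF2BP libraries and in no METTL1 or WDR4 library, and each lay past the end of a protein-coding gene on its own strand. Each held CAUH near its centre.
RARRES1 site, chr3:158704049-158704078, plus strand: ccaaaatcctaaaaatCATCcttaactcct
CKAP5 site, chr11:46745142-46745171, plus strand: aaacaacaaaaaatcCATCacacttcctaa

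The last 4 have a centre with more than 1 copy in hg38. The PCBD2 and UNC45B sites were present in all 12 libraries, the RELN site in 11 and the WDR19 site in all 4 METTL1 and WDR4 libraries alone.
PCBD2 site, chr5:134924437-134924466, minus strand: acaaccaccacccCATCATActctttcacc
UNC45B site, chr17:35151221-35151250, minus strand: ctcagatcagacgtggcgacccgctgaatt
RELN site, chr7:103773425-103773454, plus strand: ccctctctctctctctctctccctcgctcc
WDR19 site, chr4:39211948-39211977, minus strand: ctctctctctctctctctctctctctctct

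Antisense clusters made up a larger part of the METTL1 and WDR4 libraries than of the IGF2BP libraries. They were 3.55% and 3.54% of the clusters in the IGF2BP1 libraries (492 and 533 clusters), 3.70% and 4.17% for IGF2BP2 (154 and 290), and 3.27% and 3.18% for IGF2BP3 (200 and 205). The bio2 libraries of IGF2BP3 had 3.45% and 3.60% (207 and 200 clusters). METTL1 had 6.76% and 6.47% (411 and 521 clusters) and WDR4 had 7.08% and 8.44% (651 and 730). No IGF2BP library reached the lowest METTL1 or WDR4 library, and the 95% Wilson confidence interval of the latter was 5.95% to 7.03%, which covers counting error only.

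The mean share was 3.56% ± 0.301 (SD, n = 8) for IGF2BP and 7.19% ± 0.870 (SD, n = 4) for METTL1 and WDR4. The difference, -3.63 percentage points, exceeded the spread of either group (exact permutation test, two-sided, p = 0.00202, the smallest possible, adjusted p = 0.0121 over 6 such comparisons). Taking proteins as units gave -3.57 points, with an exact permutation p of 0.1, the smallest that 3 proteins against 2 allow. For scale, the rule covers 27.4% of the bases of both strands of these chromosomes, an area larger than the antisense share of any library.

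Clusters in no gene on either strand also made up more of the METTL1 and WDR4 libraries, with 5.40% ± 0.914 (SD, n = 8) for IGF2BP and 10.1% ± 1.77 (SD, n = 4) for METTL1 and WDR4 (difference -4.66 points, exact permutation test, two-sided, p = 0.00202, adjusted p = 0.00943 over 7 comparisons added after the values were seen). Of the clusters of both classes together, antisense clusters were 39.96% ± 3.18 (SD, n = 8) and 41.8% ± 2.05 (SD, n = 4), and this difference of -1.86 points was within the spread between libraries (exact permutation test, p = 0.305, adjusted p = 0.305). The larger share was thus seen in both classes.

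The difference was smaller among wider clusters. Among clusters of 25 nt or more, the antisense share was 3.18% ± 0.536 (SD, n = 8) for IGF2BP and 5.29% ± 0.293 (SD, n = 4) for METTL1 and WDR4, and differed by -2.11 points (exact permutation test, two-sided, p = 0.00202). Among narrower clusters it was 7.03% ± 3.52 (SD, n = 8) and 16.0% ± 2.55 (SD, n = 4).

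**Figure D1:**
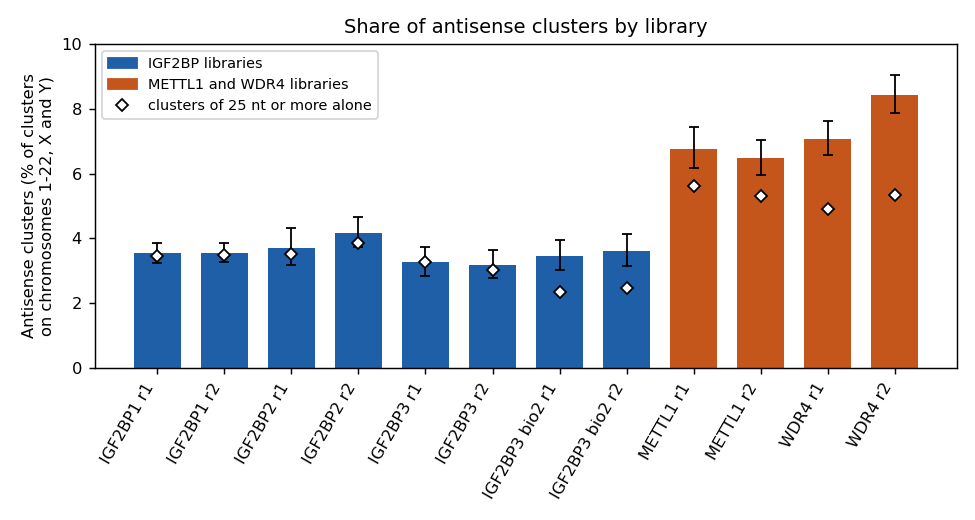
Antisense clusters as a percentage of the clusters of each library on chromosomes 1 to 22, X and Y (bars, with 95% Wilson confidence intervals), and the same share among clusters of 25 nt or more (diamonds), for 8 IGF2BP and 4 METTL1 and WDR4 libraries (r1 and r2 are replicates). All 4 METTL1 and WDR4 bars stand above all 8 IGF2BP bars, and the diamonds keep that order at lower values in the bio2, METTL1 and WDR4 libraries.

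The gene on the opposite strand was protein-coding for 71.1% of the 4594 antisense clusters, a long noncoding RNA for 19.9% and a pseudogene for 8.97%. The midpoint lay opposite an intron in 3791 clusters (82.5%). It lay opposite an exon in 803 (17.5%), most of them noncoding exons (508), with 119 opposite coding sequence, 117 opposite a 3′ UTR and 59 opposite a 5′ UTR. Exons are 7.36% of the area that the rule covers.

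The opposite-exon share ran from 14.8% to 20.1% over the IGF2BP libraries and from 15.1% to 21.9% over the METTL1 and WDR4 libraries. These ranges overlapped, and the means of 17.5% ± 1.55 (SD, n = 8) and 18.6% ± 3.47 (SD, n = 4) differed by -1.19 points, less than the libraries of a group varied (exact permutation test, two-sided, p = 0.424, adjusted p = 0.611). Positions along the opposite gene were spread over its length. The lower quartile, median and upper quartile were 0.234, 0.500 and 0.772 of the gene from its start, and 433 clusters (9.43%) lay in the first 1000 nt.

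In 1316 antisense clusters (28.6%), the opposite gene also carried a cluster on its own strand somewhere in the same library. By library this share ran from 16.5% to 33.5%, and it was lowest in bio2 (16.9% and 16.5%). With a protein-coding opposite gene it was 31.1% of the clusters pooled over libraries. Counted as genes, 10.1% to 24.8% of all protein-coding genes had a cluster on their own strand in a library. Clusters and genes are unlike units, so these shares were not compared. Direct overlap of clusters on both strands was rare. It was seen for 147 antisense clusters (3.20%), with 2.65% ± 1.83 (SD, n = 8) for IGF2BP and 3.79% ± 0.343 (SD, n = 4) for METTL1 and WDR4 (difference -1.13 points, exact permutation test, two-sided, p = 0.263, adjusted p = 0.525). Among clusters of 25 nt or more the difference was -3.06 points (exact permutation test, p = 0.00808). The bio2 libraries had 0 and 1 such cluster.

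Annotation sets the membership, and another annotation moves some of it. RefSeq genes with a known strand, which were 27303 of the 59679 RefSeq genes with coordinates, held 335 of the 4594 antisense clusters (7.29%) on the strand of the cluster. Of these, 241 lay in long noncoding RNAs and 94 in protein-coding genes. LOC105374809 held 52 of them, opposite LINC01291, HNF4A-AS1 held 50, opposite HNF4A, and LOC124903293 held 28, opposite STXBP6. TXNDC9, which encodes a thioredoxin domain protein, held 16.

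HNF4A encodes a nuclear receptor that directs the hepatocyte gene programme. Opposite it lay 50 clusters in 14 sites between chr20:44357695-44372670, all inside introns of HNF4A and on the minus strand. IGF2BP1 libraries held 9 and 10 of these clusters, IGF2BP2 libraries 4 and 7, IGF2BP3 libraries 8 and 8, METTL1 libraries 0 and 0, and WDR4 libraries 3 and 1, and the bio2 libraries had none. The nearest site lay 97 nt past the GENCODE end of HNF4A-AS1, a noncoding RNA of the same strand, whose RefSeq form holds all 50. G stood just before 46 of the 50 clusters, the base after which RNase T1 cuts, and 45 held CAUH.

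LINC01291, a long noncoding RNA gene, had 53 clusters in 8 sites on its opposite strand, and all 12 libraries contributed. The 6 IGF2BP libraries without the bio2 label held 4 to 8 each, the bio2 libraries 4 and 3, METTL1 libraries 1 and 1, and WDR4 libraries 4 and 2. The centre of each of the 8 sites occurred in hg38 at that place alone, and 52 of the 53 clusters held CAUH. The most widely shared site, chr2:74929257-74929293, was found in 10 libraries, with G just before 8 of its 10 clusters. The pair of LINC01291 sequences above come from this site and from another found in 9 libraries, where 4 of 9 clusters had G before the start.

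Opposite ENSG00000246250, a long noncoding RNA gene, lay 54 clusters in 11 sites. All of them lay between 5281 and 9719 nt past the end, on their own strand, of HSD17B12, which encodes an enzyme of fatty acid elongation. IGF2BP1 libraries held 9 and 12, IGF2BP2 libraries 6 and 9, IGF2BP3 libraries 4 and 5, METTL1 libraries 2 and 2, and WDR4 libraries 3 and 2. The bio2 libraries held none. Of the 54 clusters, 50 had G just before the start and 31 held CAUH. A single-copy centre was found for 5 of the 11 sites, and 3 had a centre with over 1000 copies. The most widely shared site, in 10 libraries, had a centre with 449 copies and held 18 of the clusters.

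PECAM1, which encodes an adhesion molecule of endothelial cells and platelets, was the gene with the most reproducible IGF2BP1 sites opposite it, at 9. Opposite its introns were 21 sites with 53 clusters, of which the IGF2BP1 libraries held 11 and 13 and the IGF2BP2 libraries 6 and 7. IGF2BP3 libraries held 3 and 4, METTL1 libraries 2 and 3, WDR4 libraries 2 and 2, and the bio2 libraries 0. Only 4 of the 21 sites had a single-copy centre and 9 had a centre with over 1000 copies, unlike LINC01291. G stood before 49 of the 53 clusters, and 19 held CAUH, which 45.3% of all antisense clusters held.

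**Figure D2:**
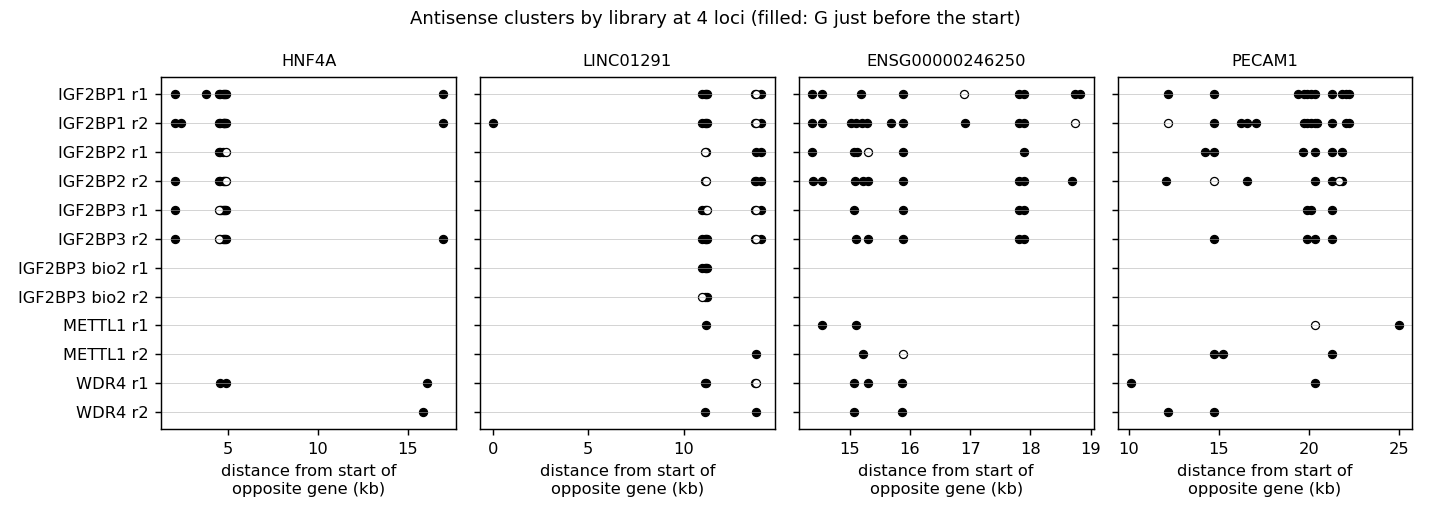
Each point is an antisense cluster in the library named at the left, placed by the distance of its midpoint in kb from the start of the opposite gene, for HNF4A, LINC01291, ENSG00000246250 and PECAM1. Filled points have G just before the cluster (46 of 50, 43 of 53, 50 of 54 and 49 of 53), and the bio2 libraries have points at LINC01291 alone of these 4 genes.

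Transcripts can run on beyond the annotated end of a gene, and many antisense clusters lay downstream of a gene of their own strand. Between 5000 and 10000 nt past a same-strand protein-coding gene end lay 564 antisense clusters (12.3%), although that interval is 1.81% of the area the rule covers. Of these, 499 (88.5%) had G just before the start, against 66.4% of all antisense clusters. The 564 included the 54 clusters past HSD17B12, none of them from bio2 libraries. Clusters of a site called in several libraries were each counted. Among the 1151 clusters inside the 5000 nt window, which the rule leaves out, 90.3% had it.

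The downstream share was 20.9% and 18.6% for IGF2BP1, 18.8% and 17.6% for IGF2BP2, 20.5% and 19.02% for IGF2BP3, 4.83% and 5.00% for bio2, 9.98% and 7.10% for METTL1, and 7.22% and 7.81% for WDR4. The bio2 libraries thus lay below all 4 METTL1 and WDR4 libraries and the other 6 IGF2BP libraries above them. Over all 12 libraries the difference of 7.63 points between IGF2BP and the METTL1 and WDR4 libraries missed the threshold (exact permutation test, two-sided, p = 0.0606). Leaving out the bio2 libraries, which had the lowest shares of the IGF2BP libraries, could only raise this difference. In exact permutation tests the value rose to 9.18 points without bio2 replicate 1 (p = 0.0212) and 9.16 without bio2 replicate 2 (p = 0.0242). Leaving out both raised the value to 11.2 points (p = 0.00476 by the same exact permutation test). Any other library left out gave 6.88 to 8.28 points, short of the threshold (exact permutation p from 0.0697 to 0.145).

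A few of the genes followed by such sites are given as examples, chosen after their values were seen. F2, the gene of prothrombin, was followed at 5650 nt by the CKAP5 site, found in 7 IGF2BP libraries and in no METTL1 or WDR4 library. GFM1, a mitochondrial translation factor, was followed at 8483 nt by the RARRES1 site, likewise found in 7 IGF2BP libraries and in no METTL1 or WDR4 library. All 7 clusters at each of these sites began just after G. AHSG, the plasma protein fetuin-A, was followed at 5695 nt by the HRG-AS1 site, found in 6 IGF2BP libraries, METTL1 replicate 1 and WDR4 replicate 1, with G before all 8 clusters.

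ZNF277 was followed by 14 clusters in 6 libraries, of IGF2BP proteins alone, and G preceded all 14. The 7 clusters past ASXL1, a chromatin regulator, differed from these in that none began after G. They lay at a single-copy site 15314 nt past the gene end, in 4 METTL1 and WDR4 and 3 IGF2BP libraries. With chromosome 8 left out, 135 protein-coding genes were followed, within 50000 nt, by a single-copy antisense site found in at least 2 libraries. With chromosome 8 included there were 20007 protein-coding genes, of which 653 were followed by any antisense site within that distance.

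Few genes of 3 short lists had an antisense site. None of 24 liver plasma protein genes had an antisense site opposite it and 1, AHSG, had sites downstream (4 sites, 5695 to 11470 nt past its end). Of 17 imprinted genes, KCNQ1, a potassium channel gene, had 4 sites opposite it, each in at most 2 libraries. UBE3A, a ubiquitin ligase gene, had 1 site 9745 nt past its end, opposite SNHG14, in 2 libraries. Of 12 genes known as IGF2BP targets, 1 had a site, found in 1 library. For comparison, 7.78% of all protein-coding genes had a site opposite them and 3.26% one downstream within 50000 nt. The lists are too short for a share to be set against these.

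Repeated sequence was common among antisense clusters. The central 20 nt occurred in hg38 at 1 place for 2087 of them (45.4%), at 2 to 10 places for 1303 (28.4%), at 11 to 1000 for 654 (14.2%) and at over 1000 for 550 (11.97%). Over 1000 copies were found for 0% to 13.1% of the antisense clusters of an IGF2BP library and for 14.9% to 16.9% of those of a METTL1 or WDR4 library. This was not tested, and the share of other clusters over this limit was not computed. With more than 1 copy, other clusters also differed, with means of 35.0% for IGF2BP and 50.0% for METTL1 and WDR4. The multi-copy share ran from 41.5% to 70.8% over the IGF2BP libraries, with IGF2BP2 highest at 70.8% and 67.9%, and from 47.0% to 63.1% over the METTL1 and WDR4 libraries. The means of 53.8% ± 11.1 (SD, n = 8) and 55.6% ± 7.57 (SD, n = 4) differed by less than the spread between libraries (difference -1.75 points, exact permutation test, two-sided, p = 0.780, adjusted p = 0.780). Among clusters of 25 nt or more they were 59.95% ± 12.1 (SD, n = 8) and 79.8% ± 3.76 (SD, n = 4), and differed by -19.8 points (exact permutation test, p = 0.0141).

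Within a library, antisense clusters were more often multi-copy than the other clusters in 11 of 12 libraries. The exception was WDR4 replicate 2, with 47.0% against 49.0%. The mean difference was 14.4 points (two-sided exact sign-flip permutation test over 12 libraries, p = 0.000977, smallest possible 0.000488, adjusted p = 0.00163 over 5 such comparisons). The other clusters are mostly exonic, and the sign depended on what was compared. Against clusters in introns of their own strand the difference was 3.39 points (exact permutation test, p = 0.0527). Against clusters in no gene on either strand it was -3.46 points (exact permutation test, p = 0.00244).

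Copies of mitochondrial DNA were a frequent class. The central 20 nt of 404 antisense clusters (8.79%) occurred on the mitochondrial chromosome, from 5.08% of those in IGF2BP1 replicate 1 to 18.8% in IGF2BP2 replicate 1. Of these 404, 62.1% lay opposite a pseudogene, against 3.84% of the other antisense clusters. In 70 of the 404 the centre matched a mitochondrial transcript in sense. G preceded 66.1% of the 404, close to the 66.4% of all antisense clusters.

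The genes opposite the most reproducible METTL1 and WDR4 sites were pseudogenes that hold such copies. ENSG00000230021, a pseudogene with a nuclear copy of mitochondrial DNA in its span, had 53 clusters in 8 sites opposite it. All 12 libraries held some of them, with 2 to 7 clusters each, and 28 of the 53 had G before the start. MTCO1P40, a pseudogene of mitochondrial COX1, had 34 clusters from 10 libraries in 8 sites, all with a mitochondrial match. MTND4P35, a pseudogene of mitochondrial ND4, had 33 from 8 libraries in 7 sites, of which 5 had a mitochondrial match. The METTL1 libraries held 4 and 4 of the MTCO1P40 clusters and 4 and 5 of the MTND4P35 clusters, and the WDR4 libraries 7 and 5, and 6 and 6. The IGF2BP3 libraries held 1 and 3 at MTCO1P40 and none at MTND4P35, and the bio2 libraries held none at either. CAUH was held by 38 of the 53 clusters opposite ENSG00000230021, 6 of 34 opposite MTCO1P40 and 1 of 33 opposite MTND4P35. The PCBD2 site in all 12 libraries was a further mitochondrial copy, and none of its 12 clusters had G before the start.

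Ribosomal RNA was another class. In 174 antisense clusters (3.79%) the central 20 nt occurred in the 45S ribosomal RNA genes that RefSeq places on chromosome 21, on either strand. Among the 106 sites found in at least 6 libraries, 6 matched, the DLG2 and UNC45B sites among them. The UNC45B site, opposite an intron of a myosin chaperone gene, was called in all 12 libraries and began after G in none of its 12 clusters. The DLG2 site, opposite an intron of a synaptic scaffold gene, was called in 11 libraries and began after G in 8 of 15 clusters. In 232 antisense clusters (5.05%) the centre matched a transcript annotated as Metazoa_SRP or RN7SL, names for the signal recognition particle RNA and its copies.

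Simple repeats were a further class. A dinucleotide repeated at least 6 times, runs of a single base included, filled part of the central 20 nt of 230 antisense clusters (5.01%). In 198 of them the repeat was of C and T, as at the WDR19 and RELN sites. METTL1 and WDR4 libraries held 148 of the 230 (64.3%) and 50.3% of all antisense clusters. WDR4 replicate 2 alone held 68 of the 148, and without it the shares were 49.4% and 41.0%. By library, simple repeats were 3.46% ± 1.58 (SD, n = 8) of the antisense clusters for IGF2BP and 6.002% ± 2.45 (SD, n = 4) for METTL1 and WDR4, with METTL1 replicate 1 at 3.41%, and the difference of -2.54 points missed the threshold (exact permutation test, two-sided, p = 0.0505, adjusted p = 0.0707). G stood before 68 (29.6%). The centre of the WDR19 site, opposite an intron of an intraflagellar transport gene, occurred 71459 times in hg38, and none of its 4 clusters had G before the start.

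The central 20 nt of 1357 antisense clusters (29.5%) occurred in sense in an annotated GENCODE transcript elsewhere. The share was 27.8% ± 7.76 (SD, n = 8) for IGF2BP and 30.5% ± 3.18 (SD, n = 4) for METTL1 and WDR4 (difference -2.75 points, exact permutation test, two-sided, p = 0.509, adjusted p = 0.611). Among clusters of 25 nt or more the difference was -15.5 points (exact permutation test, p = 0.00808), and at or above the median width of the library it was -23.5 points (exact permutation test, p = 0.00202). Other clusters matched more often, since an exonic cluster matches its own transcript (difference -40.1 points within libraries, exact permutation test, p = 0.000488). Against clusters in introns of their own strand, antisense clusters matched more often, by 6.36 points (exact permutation test, p = 0.00195).

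**Figure D3:**
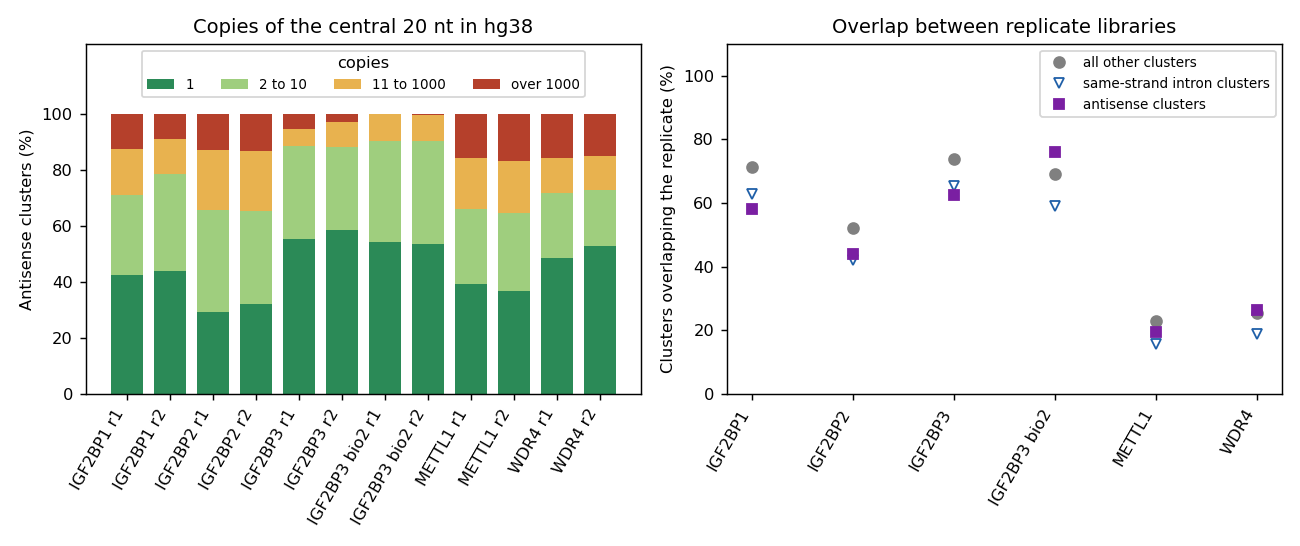
Left, antisense clusters of each library by the number of places at which their central 20 nt occurs in hg38, as stacked percentages. Right, the percentage of clusters of both replicate libraries that overlap a cluster of the other replicate, for antisense clusters, all other clusters and intron clusters of the same strand. The single-copy part is smallest in IGF2BP2 replicate 1, and overlap between METTL1 or WDR4 replicates lies below 30% for all 3 kinds of cluster.

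The base before the cluster gave a check of the strand. RNase T1 cuts after G, so an RNA fragment of the labelled strand should follow G, and a fragment of the other strand should end where C follows the cluster as labelled. G stood just before 81.1% and 84.2% of the antisense clusters of IGF2BP1, 74.7% and 78.6% of IGF2BP2 and 85.5% and 84.9% of IGF2BP3. It stood before 57% and 60% of those of bio2, 64.7% and 64.7% of METTL1, and 51.8% and 46.0% of WDR4. These shares were above the 20.4% of G among the bases of these chromosomes in all 12 libraries. C followed the cluster in 19.95% to 26.8%.

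Antisense clusters had G before the start less often than the other clusters of the same library in all 12 libraries, with means of 69.4% and 89.7%. The mean difference was -20.2 points (two-sided exact sign-flip permutation test, p = 0.000488, the smallest possible, adjusted p = 0.00122). Clusters in no gene on either strand were much closer, with a mean of 73.4%, from which antisense clusters differed by -3.95 points (exact permutation test, p = 0.00146). The share in antisense clusters was 75.8% ± 11.3 (SD, n = 8) for IGF2BP and 56.8% ± 9.42 (SD, n = 4) for METTL1 and WDR4. This difference of 18.95 points, compared after the values had been seen, had an exact permutation p of 0.0242 (adjusted p = 0.0485 over 2 added comparisons). It was 17.3 points without WDR4 replicate 1 (exact permutation test, p = 0.0545) and 15.4 points without WDR4 replicate 2 (exact permutation test, p = 0.0727). Clusters in no gene differed between the groups by 19.8 points (exact permutation test, p = 0.0182, adjusted p = 0.0318).

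Width separated the antisense clusters with G before the start from those without. Of the single-copy antisense clusters, those under 25 nt were 13.3% in the 6 IGF2BP libraries without the bio2 label, 62.1% in bio2, 57.3% in METTL1 and 81.9% in WDR4. Among other single-copy clusters the shares were 9.03%, 11.2%, 20.1% and 29.8% in the same order. G preceded 40.7%, 22.8%, 35.5% and 28.7% of the single-copy antisense clusters under 25 nt, and 92.8%, 86.7%, 90.7% and 85.8% of those of 25 nt or more. For other single-copy clusters under 25 nt the shares were 87.5%, 58.9%, 68.4% and 46.3%. The wide antisense clusters of all 4 sets were thus near the 91.8% to 96.1% of other wide clusters, and the narrow ones were nearer to the 20.4% of G among all bases. No test was made of these pooled counts, whose clusters come from 2 to 6 libraries a set.

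**Figure D4:**
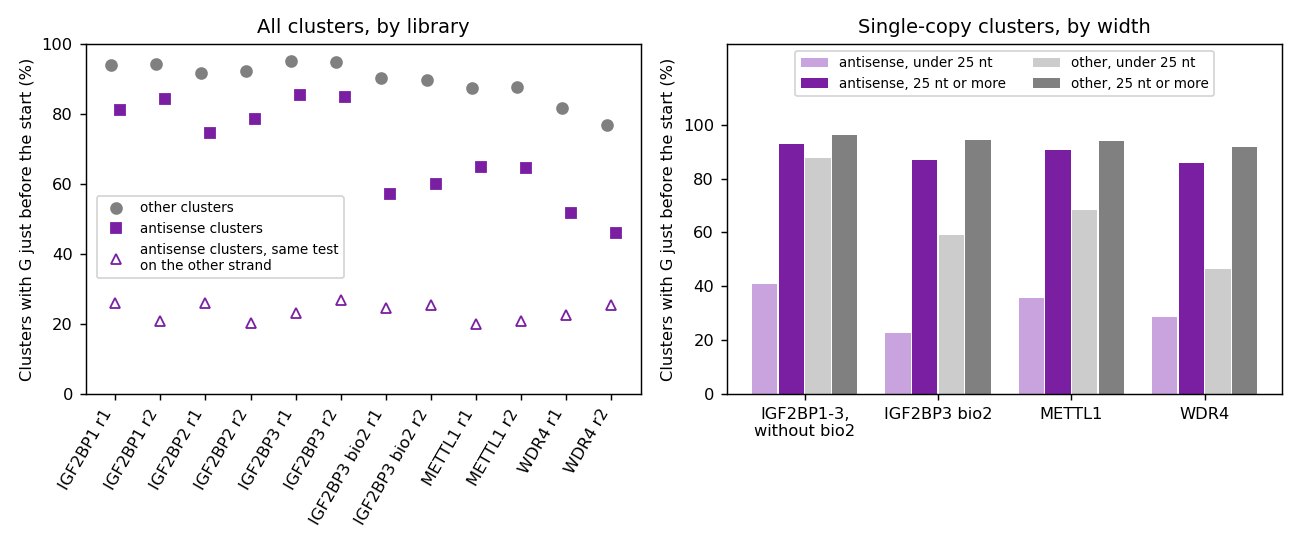
Left, the percentage of clusters with G just before the start in each library, for antisense clusters (squares) and other clusters (circles), and the same test on the other strand for antisense clusters (C just after the end, triangles). Right, the same percentage for single-copy clusters under 25 nt and of 25 nt or more, pooled over the libraries of a set. Squares lie below circles in all 12 libraries and above triangles in all 12, and the narrow antisense clusters are the lowest bars in all 4 sets.

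Reproducible sites without G before the start were present as well. The STRBP site (chr9:123245816-123245837, plus strand), single-copy and 20 to 22 nt wide, lay opposite an intron of a gene of an RNA-binding protein. It was found in 9 libraries of all 5 proteins, and 3 of its 9 clusters had G before the start. The HPGD site (chr4:174499880-174499899, plus strand), opposite an intron of a prostaglandin-degrading enzyme gene, was 18 to 20 nt wide. It was found in all 4 METTL1 and WDR4 libraries and in no IGF2BP library, with G before none of its 4 clusters. The letters of this site resemble those of a sequencing adapter, no adapter sequence was among the files used here, and its part in the HPGD site and in other narrow clusters was not tested. A run of 10 nt of the HPGD site was shared by 33 antisense clusters (0.718%) and by 0.381% of other clusters. Of the 33, 19 (57.6%) were from METTL1 or WDR4 libraries, as were 50.3% of all antisense clusters. Those under 25 nt were 12 (36.4%), against 27.7% of all antisense clusters. No test was made of these counts. In contrast, the LINC01965 site, of 29 nt in each of 10 libraries, had G before all 10 clusters. Of the 106 sites found in at least 6 libraries, 51 had G before all their clusters and 12 before none.

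CAUH, the element tied to IGF2BP binding, was sought in each cluster and the 10 nt to either side of it. It occurred in 56.3% and 63.2% of the antisense clusters of IGF2BP1, 46.8% and 44.1% of IGF2BP2, 80.5% and 77.6% of IGF2BP3 and 48.8% and 47.0% of bio2. In METTL1 it occurred in 30.2% and 30.3% and in WDR4 in 34.3% and 33.6%. All 8 IGF2BP libraries thus lay above all 4 METTL1 and WDR4 libraries. The means of 58.0% ± 14.4 (SD, n = 8) and 32.1% ± 2.13 (SD, n = 4) differed by 26.0 points (exact permutation test, two-sided, p = 0.0101, adjusted p = 0.0303). The difference missed the threshold with proteins as units (24.1 points, exact permutation test, p = 0.2) and with a window of 50000 nt after genes of any biotype (19.1 points, exact permutation test, p = 0.0929). Among clusters of 25 nt or more the difference was 28.8 points (exact permutation test, p = 0.00202).

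The other clusters differed between the groups in the same direction, with CAUH in 65.4% ± 10.1 (SD, n = 8) and 40.8% ± 3.09 (SD, n = 4), which differed by 24.6 points (exact permutation test, p = 0.00404, adjusted p = 0.00943). Clusters in no gene had it in 56.3% ± 12.7 (SD, n = 8) and 32.5% ± 2.19 (SD, n = 4), which differed by 23.8 points (exact permutation test, p = 0.00404, adjusted p = 0.00943). The IGF2BP libraries thus had more CAUH in all 3 classes of cluster.

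Within libraries CAUH was less frequent in antisense than in other clusters, by 7.78 points on average (difference -7.78, two-sided exact sign-flip permutation test, p = 0.0122, adjusted p = 0.0153), and higher in 3 of 12 libraries. The largest gaps were in bio2, with 48.8% and 47.0% against 73.7% and 74.4%, where antisense clusters were also narrower (medians of 29 and 27.5 nt against 34 and 34 nt). IGF2BP3 libraries without the bio2 label had more CAUH in antisense clusters, with 80.5% and 77.6% against 74.6% and 73.2%. Without the bio2 libraries the mean difference was -4.10 points (exact permutation test, p = 0.0488). Among clusters at or above the median width of their library it was -0.998 points (exact permutation test, p = 0.570).

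Most antisense sites were seen in a single library. Of the 2703 merged sites, 1915 (70.8%) came from 1 library, where the figure for all merged sites was 60.9%. In all 12 libraries were 2 sites, the PCBD2 and UNC45B sites, where 0.424% of all merged sites were, and 106 (3.92%) in at least 6, where 8.75% of all merged sites were. Sites of IGF2BP libraries alone were 859 (31.8%, against 43.3% of all merged sites), those of METTL1 or WDR4 libraries alone 1607 (59.5%, against 42.9%), and 237 (8.77%, against 13.8%) were in both. The 36 sites found with all 5 proteins made up 1.33%, and the share among all merged sites was not computed for this count. The sites lay opposite 2053 of 62663 GENCODE genes (3.28%).

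Between replicate libraries of a protein, 295 of 726 antisense sites of IGF2BP1 (40.6%) were in at least 2 libraries, where 54.6% of all merged IGF2BP1 sites were. For IGF2BP2 the count was 96 of 344 (27.9%, against 34.9%), and for IGF2BP3 with its 4 libraries 266 of 485 (54.8%, against 58.2%). For METTL1 it was 92 of 838 (10.98%, against 12.4%) and for WDR4 181 of 1195 (15.1%, against 14.4%). METTL1 and WDR4 antisense sites were therefore reproduced at close to the rate of all their sites, which was low.

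Counted as clusters of both libraries of a pair, 58.0% of the antisense clusters overlapped the replicate for IGF2BP1, 43.9% for IGF2BP2, 62.5% for IGF2BP3, 76.2% for bio2, 19.3% for METTL1 and 26.5% for WDR4. The other clusters did so in 71.2%, 52.2%, 73.8%, 69.0%, 23.01% and 25.6%. The bio2 and WDR4 pairs stood above their other clusters and the other 4 pairs below. The mean difference of -4.73 points missed the threshold (two-sided exact sign-flip permutation test over 6 pairs, p = 0.188, smallest possible 0.0313). Against intron clusters of the same strand it was 3.76 points (exact permutation test, p = 0.313).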

How the data were processed

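PAR-CLIP reads were processed by the authors. Per the study's methods, reads were quality filtered, clipped of adapters and collapsed with the FASTX toolkit, short reads were dropped, the rest were mapped with bowtie under a limit on mismatches and on the number of places, and clusters were called with PARalyzer. Versions and PARalyzer settings were not given in the sources used here. The deposited values are neither counts nor levels but positions of another type: the start, end and strand of every cluster called in a library, without score or read number. A read that fits several places can give a cluster at each, so clusters in repeated sequence may be placed at a copy. Positions fit hg38 and are counted from 1.

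Clusters were placed by their midpoint against GENCODE release 44. Copy number was the number of exact matches, on both strands, of the central 20 nt to hg38 without alternate and patch contigs, so a longer read can still be unique. RefSeq gene tables of GRCh38.p14 gave a further annotation. Clusters overlapping by at least 1 nt were taken as shared. Libraries were the units, in 8 IGF2BP and 4 METTL1 and WDR4 libraries, and groups came from the sample titles. Clusters are not replicates. Exact permutation tests, two-sided, over all 495 splits compared the groups, and exact sign-flip permutation tests compared antisense with other clusters (4096 arrangements, or 64 for pairs), with a threshold of 0.05 and Benjamini-Hochberg adjustment over 6 and over 5 comparisons. The labels do not say which replicates were separate cultures, so p-values measure the spread between these libraries, which may be technical. Whether replicate numbers pair libraries was checked by correlating the replicate deviations of 2 groups at a time. The 15 correlations, over 9 measures, ran from -0.633 to 0.696. So few measures cannot settle whether the numbers pair the libraries.

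Named sites were those in the most libraries (8 with a single-copy centre, 4 with more copies), the 3 in the most IGF2BP libraries alone and the 3 in the most METTL1 and WDR4 libraries alone, and for each protein the 2 opposite genes with the most reproducible sites. Sites past gene ends and genes named from RefSeq were chosen after their values were seen. Chromosome 8 was left out of names and of the count of genes followed by single-copy sites. 1 site that this rule names is not reported here. The members, lists and tests were chosen with earlier results of these data known. Alternatives left out libraries, changed the unit, the rule, the copy limit or the overlap, or kept single-copy or wide clusters. Clusters of at least 25 nt, clusters with G before the start, other sets of compared clusters, the downstream share and the group comparisons of G before the start, of simple repeats, of clusters in no gene and of CAUH in other clusters were added after seeing the data. Python 3.11.15, NumPy 2.4.6, pandas 2.3.3, SciPy 1.17.1 and Numba 0.67.0 were used, and the code was tested on simulated data.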

Additional observations from a re-analysis of the deposited data

Results flagged for a closer look

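The share of antisense clusters that overlapped a cluster of the same library on the other strand was 4.30% in WDR4 replicate 1, apart from the 3.56% to 3.65% of the other METTL1 and WDR4 libraries. It was the single such case among 18 groups of values screened, where chance gives about 1 in 20.

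The excess of multi-copy sequence in antisense over other clusters differed between the groups of libraries, by 13.3 points. It was 18.8 ± 4.17 points (SD, n = 8) in the IGF2BP libraries and 5.57 ± 6.05 points (SD, n = 4) for METTL1 and WDR4 (exact permutation test, two-sided, p = 0.00404, adjusted p = 0.0101 over 5 comparisons). Antisense clusters were multi-copy in means of 53.8% for IGF2BP and 55.6% for METTL1 and WDR4, and other clusters in 35.0% and 50.0%. The difference thus lay mostly in the other clusters.

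The match to annotated transcripts differed in the same way, by -21.0 points. Antisense clusters stood below other clusters by a mean of -47.1 points in the IGF2BP libraries and -26.1 points in the METTL1 and WDR4 libraries (exact permutation test, two-sided, p = 0.00202, adjusted p = 0.0101). Other clusters matched a transcript in means of 74.9% for IGF2BP and 56.6% for METTL1 and WDR4, and antisense clusters in 27.8% and 30.5%. The difference thus lay mostly in the other clusters. The other clusters of these groups also differ in how many are exonic, and the part of this in the result was not tested.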

How the results depend on the processing

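The lower antisense share in the IGF2BP libraries kept its direction under all 23 alternatives. The difference was -3.87 to -3.21 points with each library left out and -3.98 points among single-copy clusters. It was smaller at or above the median width (-1.76 points), among clusters with G before the start (-2.04) and from 25 nt (-2.11). With a window of 50000 nt after genes of any biotype it was -2.18 points. It missed the threshold with the protein as the unit alone (-3.57 points). That unit, whose smallest p is 0.1 between groups and 0.0625 within libraries, also left short of the threshold the differences between groups in CAUH (24.1 points) and G before the start (20.3), and those within libraries in multi-copy sequence (14.0), CAUH (-7.23), G before the start (-20.1) and transcript matches (-37.3). In the replicate block, with permutation within replicate number, no call changed (antisense share -3.63 points, exact permutation p = 0.00444). The group difference in multi-copy share, not past the threshold, was -4.61 to 0.775 points with a library left out, 0.799 without bio2, 1.34 over proteins and 2.29 with a window of 50000 nt after genes of any biotype. It was -25.0 points at or above the median width and -19.8 points from 25 nt, both past the threshold. Transcript matches then differed by -23.5 and -15.5 points and clusters on both strands by -3.02 and -3.06 points, also past it, and the latter by -2.22 points among clusters with G before the start. The difference in opposite exons turned to 5.28 points at or above the median width and 4.50 points with the 50000 nt window, where CAUH fell to 19.1 points, not past the threshold. With a library left out, G before the start differed between groups by 15.4 to 21.6 points and the downstream share by 6.88 to 9.18 points. The downstream share passed the threshold without either bio2 library, without both (11.2 points) and among single-copy clusters (12.9 points). In the other 17 of its 21 alternatives it stayed short of the threshold. CAUH within libraries was no longer past the threshold among single-copy clusters (-7.83 points), with a protein-coding opposite gene (-6.98), at or above the median width (-0.998) and among clusters with G before the start (-4.45). Against clusters in no gene, the differences were -3.46 points for multi-copy sequence, 1.02 for CAUH, -3.95 for G before the start and -1.24 for transcript matches. Against same-strand intron clusters they were 3.39 points for multi-copy sequence, 6.36 for transcript matches and 3.76 for replicate overlap. Causes were not tested. With no read counts, the depth of a cluster was unknown. The downstream share was not computed where the window itself was changed.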
